A study of Mus musculus with 6 samples.

Results

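The subunits of the oxidative phosphorylation complexes were followed in the transcriptome of the sham-operated mouse sciatic nerve. Members were the genes with at least 1 protein-coding transcript whose symbol named a subunit of complexes I to V (Nduf followed by a, b, c, s or v and a digit, Sdha to Sdhd, Uqcr, Cox4 to Cox8, Atp5, or the mitochondrial mt-Nd, mt-Co, mt-Cytb and mt-Atp genes). The rule took 100 of the 54309 genes in the files, of which 87 were nuclear and 13 were encoded by mitochondrial DNA. Values were summed over the protein-coding transcripts of each symbol. Cytochrome c (Cycs), cytochrome c1 (Cyc1) and Ndufab1 have other symbols and were read with a separate list of assembly factors and carriers.

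Left sciatic nerves, called whole in the labels and proximal segments in the methods of the study, came from female and male C57BL/6 mice, 6 to 8 weeks of age, in which the nerve had been exposed at mid-thigh but not cut (sham surgery). Tissue was taken 24 h later and the nerves of 2 mice were combined in each sample, which left 3 female and 3 male pools. All 6 pools therefore shared the surgery, and sex was the only contrast the labels gave. Nerves of unoperated mice and axotomized nerves were not analysed here. A pool is the average of 2 mice, so differences between single animals were not visible, and p-values measure the spread between pools.

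Oxidative phosphorylation passes electrons from NADH and succinate through complexes I and II to ubiquinone, then through complex III, cytochrome c and complex IV to oxygen, and the proton gradient that complexes I, III and IV build drives ATP synthase, complex V. Complex II is built from nuclear genes alone, whereas the other complexes combine nuclear subunits with a few proteins encoded by mitochondrial DNA. Several complex IV subunits have tissue-type isoforms, with a form found in most tissues and a form typical of heart and skeletal muscle. In peripheral nerve, mitochondria are found in axons and in Schwann cells as well as in vessels, fat and connective tissue, and the cell bodies of the neurons lie outside the nerve.

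The libraries held 55949876 to 78473057 estimated read pairs, and the members took 2.43 to 2.94% of the read pairs and 10.03 to 11.8% of the TPM (a level per unit of transcript length, scaled to 1000000 in each library). Myelinating Schwann cell markers summed to 33188 to 42363 TPM, with none of 8 at 0. Of the 6 libraries, 2 stood apart by markers of other tissues or cells. In female pool 2 the 18 fast skeletal muscle markers summed to 4365 TPM, against 32.03 to 279.8 TPM in the other 5 pools, and the highest of these was male pool 1. Of those markers, 17 passed the filter on low counts and none was at 0 throughout, with Acta1, skeletal muscle actin, at 739 TPM in female pool 2. In female pool 3 the summed level of the 5 erythroid markers, mainly for hemoglobin, was 30731 TPM, while it was 4958 to 14092 TPM in the other 5 pools, and that of the 8 white adipocyte markers was 1941 TPM, against 960.3 to 1304 TPM, with no marker of either list at 0 throughout. Macrophage markers summed to 757 to 923 TPM. Results that rest on female pool 2 are given with and without it, and without female pool 3 the count of members called between the sexes was 0, as with it.

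Most nuclear members were expressed at high and similar levels in all pools. Of the 100 members, 95 passed the filter (a CPM, or read pairs per 1000000 of the library, of at least 0.5 in at least 3 pools), namely 82 nuclear and all 13 mitochondrially encoded genes. The 5 that did not were Ndufb11b, Cox7b2 and Cox8c, each with 0 reads, Cox5b-ps, with 2.12 estimated read pairs in all, and Cox8b. For the first 3 genes a count of 0 allows up to 3 read pairs per library. Among the 82 nuclear members that passed, the median lay at the 94.5th percentile of the mean TPM of the 16310 genes tested, and 68 exceeded the 90th percentile of 93.2 TPM. Their median coefficient of variation (CV, the SD over the 6 pools divided by the mean) was 5.53%, and 5.06% without female pool 2. The CV was under 10% for 74 of the 82. As a scale, the 5978 other genes with a mean between 23.4 and 556 TPM had a median CV of 6.89% when all transcripts of a gene were summed, and the 82 members had 5.28% on that sum.

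**Figure D1:**
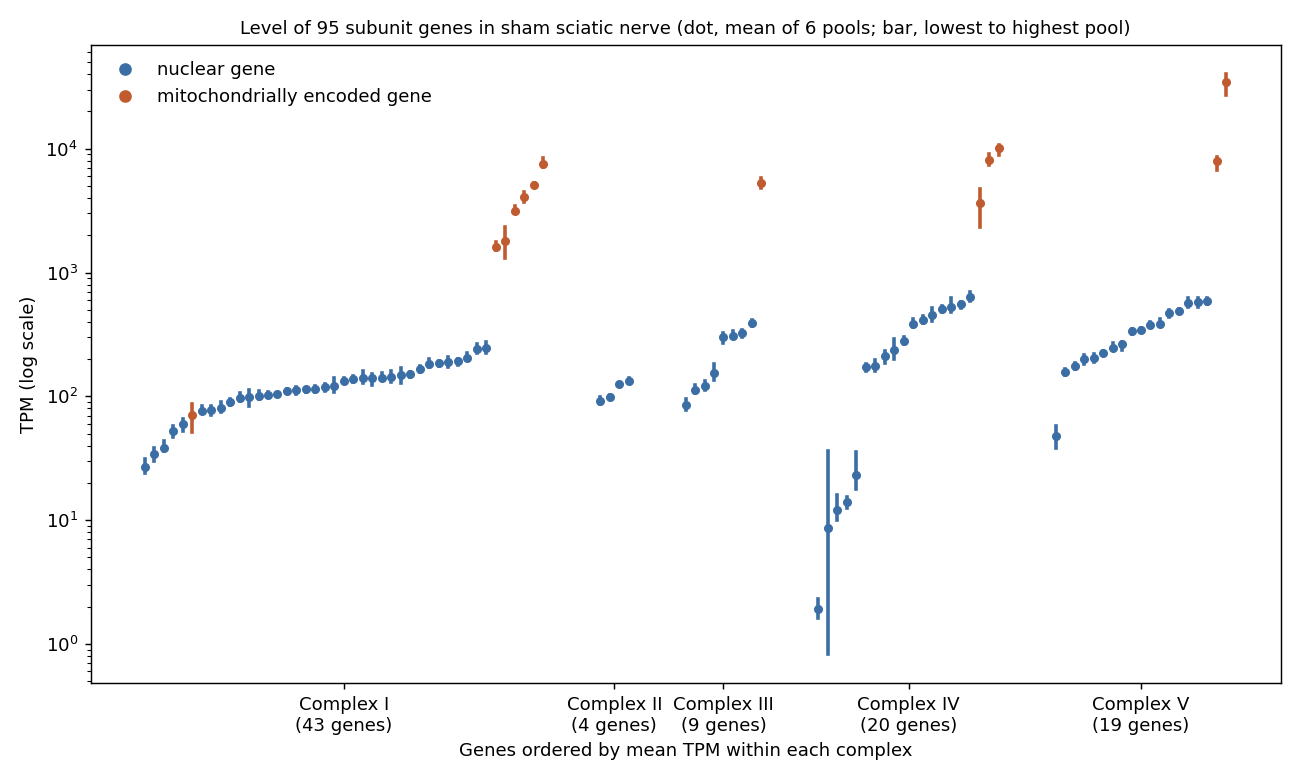
Level of the 95 members that passed the filter, in TPM on a log axis, ordered by mean within each complex; dots are means of 6 pools and bars run from the lowest to the highest pool. Mitochondrially encoded genes lie above the nuclear genes of their complex except mt-Nd6 at 70.5 TPM, and the longest bar is that of the muscle-type subunit Cox6a2.

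The 13 mitochondrially encoded genes together outweighed the 87 nuclear genes in every pool. Their sum was 85741, 94548 and 97573 TPM in the female pools and 98914, 101562 and 82363 TPM in the male pools, while the nuclear sum was 16655, 17744 and 16512 TPM in the female pools and 16320.4, 16920.2 and 17922 TPM in the male pools. The mitochondrial genome thus supplied 82.1 to 85.8% of the member TPM, and the lowest share was that of male pool 3. In read pairs, which do not divide by length, the share was 76.97% in females and 78.5% in males. Without the short or overlapping genes mt-Atp8 and mt-Nd4l and the opposite-strand gene mt-Nd6 it was 72.9 to 75.8% of TPM.

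The ATP synthase membrane subunit mt-Atp8 had the highest level of all members, 31506, 31646 and 38444 TPM in the female pools and 39789, 40414 and 27046 TPM in the male pools. This level depends on length, since the transcript has 204 bases, but the effective length by which the authors' software divides was 46.8 bases. In estimated read pairs mt-Atp8 had 408080 over the 6 pools, fewer than the 635573 of its neighbour mt-Atp6, whose level was 7337, 8634 and 8654 TPM in the female pools and 8283, 7795 and 6710.4 TPM in the male pools. The pair also overlaps on the mitochondrial genome. On GRCm39, the build of the files, the end of mt-Atp8 and the start of mt-Atp6 share 43 bases (chrM:7927-7969), and mt-Nd4l and mt-Nd4 share 7 bases (chrM:10167-10173). Reads from the shared bases, printed in capitals with flanks in lower case to show how the reading frames meet, belong to both genes.
mt-Atp8 and mt-Atp6, chrM:7921-7975, plus strand: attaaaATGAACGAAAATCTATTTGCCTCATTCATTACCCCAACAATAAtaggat
mt-Nd4l and mt-Nd4, chrM:10155-10185, plus strand: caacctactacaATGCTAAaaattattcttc

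The catalytic core of complex IV is encoded by 3 mitochondrial genes. Its largest subunit, mt-Co1, had 8934, 10724 and 10190 TPM in the female pools and 9863, 10432 and 10607 TPM in the male pools, and mt-Co2, which receives electrons from cytochrome c, had 7370.2, 9033 and 7758 TPM in the female pools and 8472, 8333 and 7999 TPM in the male pools. The levels of mt-Co1 were lowest in female pool 1 and highest in female pool 2. For mt-Co3 the values were 3558, 4761 and 3015 TPM in the female pools and 3742, 4535 and 2352 TPM in the male pools, a CV of 24.8%, the widest of the mitochondrially encoded genes. The complex III subunit mt-Cytb, cytochrome b, had 4836, 5771 and 5479.8 TPM in the female pools and 5064, 5319 and 5382 TPM in the male pools (CV 6.15%).

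The 7 mitochondrially encoded subunits of complex I form part of its proton-pumping membrane arm, and 6 of them had mean levels from 1619 to 7585 TPM. In rising order these were mt-Nd5 (1508 to 1762 TPM over the pools), mt-Nd3 (1309 to 2323), mt-Nd2 (3002 to 3461), mt-Nd4 (3684 to 4443), mt-Nd1 (4953 to 5300.3) and mt-Nd4l (7078 to 8378). The ranges of mt-Nd5 and mt-Nd3 overlapped, and no other neighbours in this order did. These levels leave out the nuclear copies described below. With its copy added, mt-Nd3 had 2580 to 3791 TPM and overlapped mt-Nd2. Length also enters the level of mt-Nd4l, which has 297 bases. The seventh, mt-Nd6, is the only member on the minus strand of the mitochondrial genome. It had 81.6, 51.3 and 69.2 TPM in the female pools and 74.5, 86.5 and 59.9 TPM in the male pools, below most nuclear subunits of the same complex. The libraries were made from poly-A RNA, and how fully each transcript was captured was not tested.

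Reads were also assigned to nuclear copies of the mitochondrially encoded genes. A block of 7 annotated pseudogenes between 24650616 and 24655278 on the minus strand of chromosome 1 (GRCm39) matched mt-Nd4, mt-Nd4l, mt-Nd3, mt-Co3, mt-Atp6, mt-Co2 and part of mt-Co1 in their genomic order. Compared base by base, the copies of mt-Co3 (783 bases), mt-Co2 (681) and mt-Atp6 (678) had 0 differences, and that of mt-Nd3 had 1 difference in 345 bases. The first 60 bases of mt-Co3 and of its copy Gm28437 are shown because the letters alone cannot assign a read to either gene.
mt-Co3, chrM:8607-8666, plus strand: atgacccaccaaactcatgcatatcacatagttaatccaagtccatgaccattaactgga
Gm28437, chr1:24652993-24653052, minus strand: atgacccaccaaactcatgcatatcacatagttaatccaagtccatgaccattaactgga

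The 7 copies together held 11177 to 15119 TPM per pool. Gm28437 had 4700.2, 4479 and 6588 TPM in the female pools and 4915, 4547 and 5838 TPM in the male pools, which was 58.6% of the mean TPM of the pair with mt-Co3. The share held by the copy was 43.5% for mt-Nd3 (Gm28438), 34.02% for mt-Co2 (Gm28661) and 22.9% for mt-Atp6 (Gm10925), but 0 for mt-Nd4l (Gm10222), whose copy is as alike. The copy of mt-Co1 (Gm29216) held 443 TPM in male pool 3 and that of mt-Nd4 (Gm28439) 397 TPM in female pool 1, and each was under 2 TPM in the other pools.

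With the copies added, the pools came closer together. The sum of mt-Co3 and Gm28437 was 8258, 9239 and 9603 TPM in the female pools and 8657, 9082 and 8189.9 TPM in the male pools, and its CV was 6.39% where mt-Co3 alone had 24.8%. The CV went from 7.15 to 3.56% for mt-Co2, from 9.797 to 4.15% for mt-Atp6 and from 18.9 to 14.2% for mt-Nd3. For mt-Co1 it went the other way, from 6.52 to 7.299%. The mitochondrial share of member TPM with copies was 85.8% in females and 85.9% in males. How the reads of identical stretches divide between gene and copy cannot be told apart, so the levels of these genes are uncertain by the part their copies hold.

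**Figure D2:**
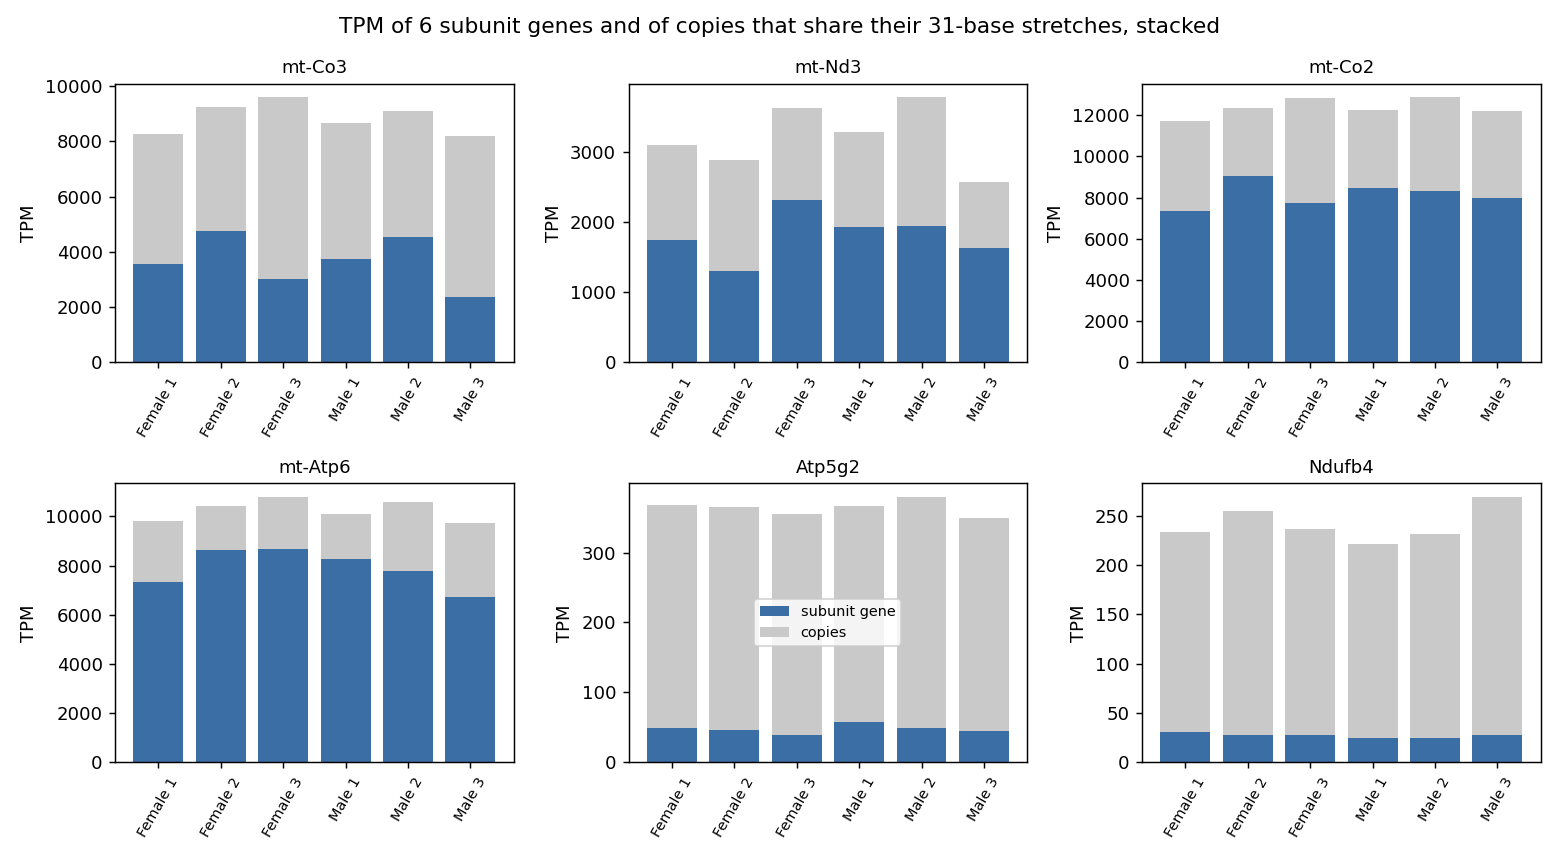
TPM per pool of 6 members (blue) and of copies that share at least 25% of their stretches of 31 bases (grey), stacked. The blue part of mt-Co3 runs from 2352 to 4761 TPM, but the stacked bars are of similar height, and in Atp5g2 and Ndufb4 the copy holds most of the bar.

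Complex I takes electrons from NADH, and 36 of its 37 nuclear members passed the filter, with a median of 117 TPM. The 7 nuclear core subunits, which carry the flavin and the iron-sulfur clusters, had mean levels from 52.6 (Ndufs1) to 112 TPM (Ndufv2). Accessory subunits, which surround the core, spread wider. Highest were Ndufa2 with 234, 245 and 234 TPM in the female pools and 224, 253 and 274 TPM in the male pools and Ndufa1 with 236, 236 and 241 TPM in the female pools and 224, 239 and 266 TPM in the male pools. Lowest were Ndufb4 with 31.1, 27.4 and 27.8 TPM in the female pools and 24.1, 24.6 and 27.6 TPM in the male pools and Ndufa10 with 35.3, 38.4 and 30.3 TPM in the female pools and 31.1, 35.6 and 34.4 TPM in the male pools. Both high genes reached their maximum in male pool 3, whereas Ndufa10 was highest in female pool 2. The next gene below Ndufa1, Ndufa7, had 198 to 223 TPM and did not overlap it, while Ndufs4, the next above Ndufa10, had 36.3 to 43.3 TPM and did.

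The low place of Ndufb4 came with a copy. Ndufb4c, annotated as a processed pseudogene at chr15:73681356-73681745 on the minus strand, is identical over its 390 bases to the coding part of the main Ndufb4 transcript, of which the first 60 bases are printed.
Ndufb4, GENCODE M39 transcript: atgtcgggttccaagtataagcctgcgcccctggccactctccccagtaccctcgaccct
Ndufb4c, GENCODE M39 transcript: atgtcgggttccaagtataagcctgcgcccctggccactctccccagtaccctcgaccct
Ndufb4c had 203, 228 and 209 TPM in the female pools and 197, 207 and 242 TPM in the male pools, or 88.8% of the TPM of the pair. The TPM of Ndufb4 and its copy summed to 241, near the levels of Ndufa1 and Ndufa2. This sum depends on length, since the copy has 390 bases and the main Ndufb4 transcript 971. Counted over the length of Ndufb4, the reads of the copy would give a lower TPM, so the place of Ndufb4 is uncertain.

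Complex II oxidizes succinate and is also an enzyme of the citric acid cycle. Its 4 genes were more even than the nuclear genes of the other complexes, with levels within 1.46-fold of each other and CVs of 1.77 to 4.53%. The flavoprotein Sdha had 131, 139.7 and 131 TPM in the female pools and 133, 137 and 128 TPM in the male pools. The iron-sulfur subunit Sdhb had 97.9, 102 and 94.8 TPM in the female pools and 97.5, 100.5 and 98.9 TPM in the male pools. Among the membrane anchors, Sdhc had 87.1, 89.5 and 92.9 TPM in the female pools and 88.7, 90.9 and 98.7 TPM in the male pools, and Sdhd had 121, 125 and 126 TPM in the female pools and 123, 126 and 127 TPM in the male pools. Sdha lay above Sdhd and Sdhd above Sdhb without overlap, whereas the ranges of Sdhb and Sdhc overlapped.

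Complex III passes electrons from ubiquinol to cytochrome c. Among its 8 nuclear members the small subunits Uqcrh, the hinge protein, and Uqcrb were highest, with 371, 399 and 395 TPM in the female pools and 369.6, 395 and 416 TPM in the male pools and 329, 345 and 303 TPM in the female pools and 309.7, 331 and 344 TPM in the male pools respectively. Its nuclear catalytic subunit Uqcrfs1, the Rieske iron-sulfur protein, was lowest with 82.7, 95.5 and 79.2 TPM in the female pools and 78.04, 82.7 and 90.4 TPM in the male pools, followed by the core protein Uqcrc1 with 114, 123 and 107 TPM in the female pools and 115, 108 and 108 TPM in the male pools. Uqcrfs1 lay below Uqcrc1 in all pools, and no pool of Uqcrc1 reached the lowest pool of Uqcrb. The other catalytic nuclear gene, Cyc1, read with the carriers, had 98.8 TPM, between Uqcrfs1 and Uqcrc1, and its electron acceptor Cycs, cytochrome c, had 34.8 TPM.

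Complex IV reduces oxygen, and its 21 nuclear members held both the highest and the lowest nuclear levels. Cox6c, an accessory subunit, led all nuclear members with 607, 672 and 609 TPM in the female pools and 592, 617 and 695 TPM in the male pools. Next within complex IV was Cox4i1, the form of subunit 4 found in most tissues, with 521, 569.6 and 564 TPM in the female pools and 541, 563 and 583 TPM in the male pools, and the ranges of Cox6c and Cox4i1 did not overlap. The subunits next in order, Cox8a (479 to 627 TPM), Cox7c (485 to 539.9), Cox6a1 (408 to 513), Ndufa4 (391 to 442) and Cox6b1 (361 to 419.6), each overlapped their neighbours. Ndufa4, first described in complex I, is counted here as the complex IV subunit it is now known to be.

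The muscle-type isoforms of complex IV were low in 5 pools and high in female pool 2. Cox6a2, at chr7:127804607-127805559, minus strand (GRCm39), had 0.828, 36.2 and 0.997 TPM in the female pools and 9.22, 2.48 and 2.19 TPM in the male pools. Its counterpart Cox6a1 had 455, 453 and 444 TPM in the female pools and 408, 442 and 513 TPM in the male pools, so that Cox6a2 made up 0.182 to 7.41% of the pair. Female pool 2 was 11.5-fold above the mean of the other 5 pools for Cox6a2, while Cox6a1 differed little, and male pool 1 was the second highest.

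Cox8b, the second muscle-type form, at chr7:140477069-140480359, minus strand, had 1.28, 34.9 and 4.31 TPM in the female pools and 13.9, 1.75 and 2.91 TPM in the male pools. It rested on 359 estimated read pairs in all and did not pass the filter. Cox8a, its counterpart, had 503, 520.3 and 515 TPM in the female pools and 479, 534 and 627 TPM in the male pools, which put Cox8b at 0.253 to 6.28% of the pair. The third, Cox7a1, at chr7:29883569-29885503, plus strand, had 17.98, 35.4 and 19.8 TPM in the female pools and 22.3, 23.8 and 19.8 TPM in the male pools, against 263, 283 and 277 TPM in the female pools and 281, 273 and 303 TPM in the male pools for Cox7a2. Unlike the other muscle-type genes, Cox7a1 did not fall below 17.98 TPM in any pool. Cox7a1 was 6.15 to 11.1% of its pair with Cox7a2.

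For Cox6a2, Cox8b and the sum of the fast muscle markers, female pool 2 was highest, male pool 1 second and female pool 1 lowest, while the order of the other 3 pools differed. Single fast markers did not all keep this order. Myh1 and Myh2 were highest in male pool 1, and for Myh4, Actn3, Pvalb and Mybpc2 male pool 1 was not second. Fast skeletal muscle markers summed to 32.03, 4365 and 95.4 TPM in the female pools and 279.8, 106 and 86.1 TPM in the male pools, and slow ones to 19.4, 21.2 and 11.2 TPM in the female pools and 77.2, 17.1 and 14.7 TPM in the male pools, with 4 of the 10 slow markers past the filter. In these sums male pool 1 led the slow markers and female pool 2 the fast ones. Brown adipocyte markers, relevant because these isoforms also occur in brown fat, summed to 9.35 to 16.1 TPM, and Ucp1, which defines that cell, was at 0.1001 to 0.323 TPM. The part of muscle RNA in these isoform levels was not tested.

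By sex, the muscle-type shares could not be separated. The Cox6a2 share was 2.61 ± 4.16 in females and 1.06 ± 0.994 in males (mean ± SD, n = 3 pools each) in percent, with p = 1 in a two-sided exact permutation test. Without female pool 2 the female mean was 0.203%, below the male mean, so that 1 library set the direction. The same held for the Cox8b share, 2.45% in females and 1.203% in males with p = 0.700 in the exact permutation test, and 0.541% in females without that pool. The Cox7a1 share was 8.06% in females and 7.17% in males, and 6.52% in females without that pool, again below the males. It gave p = 0.800 in the same permutation test. With 3 pools against 3, the smallest p this test can give is 0.1.

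**Figure D3:**
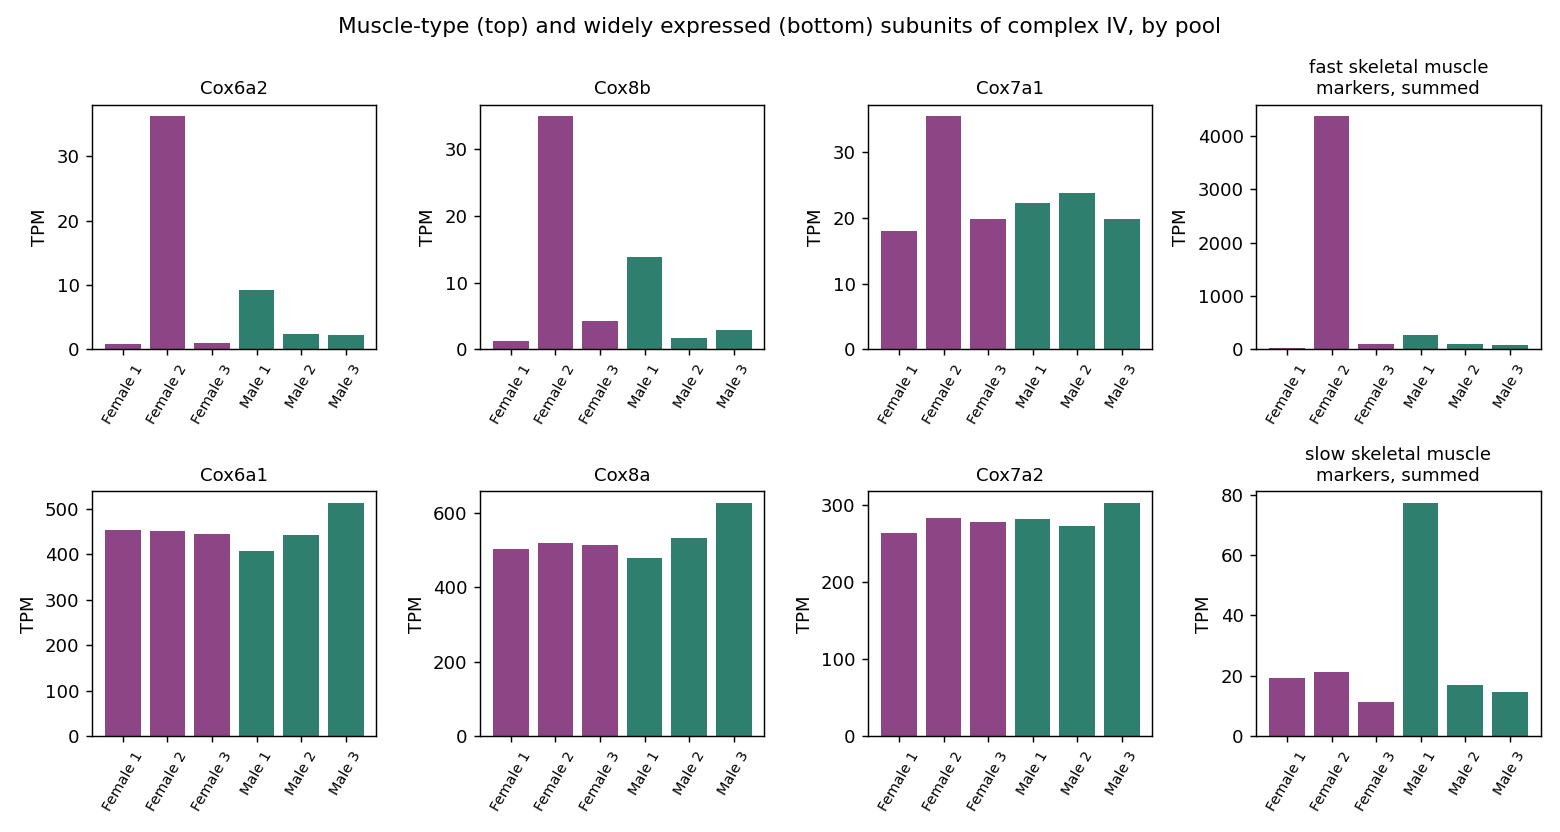
TPM per pool of the muscle-type subunits Cox6a2, Cox8b and Cox7a1 (top) and their widely expressed counterparts (bottom), beside the summed TPM of fast and slow skeletal muscle markers; bars are single pools, female in purple and male in green. Female pool 2 is highest in the top row, at 36.2, 34.9 and 35.4 TPM, and not in Cox6a1, Cox8a or Cox7a2.

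Other isoforms of complex IV were low in all pools. Cox4i2, a form of subunit 4 known from lung and from cells of small vessels, had 1.801, 1.95 and 1.88 TPM in the female pools and 2.302, 1.62 and 1.99 TPM in the male pools, 0.288 to 0.423% of its pair with Cox4i1. Ndufa4l2, a paralog of Ndufa4 known from pericytes and hypoxic cells, had 10.8, 10.6 and 12.6 TPM in the female pools and 15.8, 10.1 and 12.5 TPM in the male pools, or 2.35 to 3.89% of its pair. Both were highest in male pool 1, but the exact permutation test between sexes gave p = 0.900 and 0.600. Cox4i2 rested on 260 read pairs in all, 36 to 61 per pool. Markers of pericytes and vascular smooth muscle summed to 445 to 638 TPM, mostly from the smooth muscle genes Tagln and Acta2, and the sum was highest in female pool 1. Of the 10 markers, 2 (Pdgfrb, a pericyte receptor, and Notch3) were highest in male pool 1. The part of these cells in the isoform levels was not tested.

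Cox6b2, a form of subunit 6B typical of testis, was measured at 14.1, 14.3 and 15.4 TPM in the female pools and 12.6, 13.5 and 13.98 TPM in the male pools. Beside Cox6b1, with 361, 387 and 378 TPM in the female pools and 385, 395 and 419.6 TPM in the male pools, it held 3.74 ± 0.165 in females and 3.23 ± 0.0666 in males (mean ± SD, n = 3 pools each), in percent. The female pools were all above the male pools, and the permutation p of 0.1 is the smallest this exact test can give (adjusted over 2 shares, 0.2). Testis germ cell markers were at or near 0, with 2 of 5 at 0 in every pool and a sum of 0.0677 to 0.366 TPM. The testis forms Cox7b2 and Cox8c had no reads, while Cox7b, the counterpart of Cox7b2, had 161 to 183 TPM. Cox7a2l, a relative of Cox7a2 described as a supercomplex factor for complexes III and IV, had 160.5, 168 and 197 TPM in the female pools and 173, 176 and 179.8 TPM in the male pools, with female pool 3 highest. These are RNA levels, and whether the protein of Cox7a2l has that role in these mice was not tested. None of the 14 pairs of isoforms compared, subunit c genes included, shared a stretch of 31 bases.

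ATP synthase had 17 nuclear members, and the highest levels were those of Atp5l, a membrane subunit, and Atp5e, the epsilon subunit of the catalytic head. They had 556, 626 and 579.9 TPM in the female pools and 569.5, 590.4 and 618 TPM in the male pools and 562, 618 and 554 TPM in the female pools and 531, 581 and 625 TPM in the male pools respectively, with ranges that overlapped almost entirely. The catalytic beta subunit Atp5b had 530.1 to 622 TPM and the alpha subunit Atp5a1 319 to 353 TPM, and the former was above the latter in every pool. Lowest were Atp5g2, described with subunit c, and Atp5j2, a membrane subunit, with 152, 167 and 154 TPM in the female pools and 149, 156 and 166 TPM in the male pools.

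Subunit c forms the turning ring of the membrane part, and its mature protein is encoded by 3 genes that differ in the leader peptide. Atp5g3 had 512, 492 and 472 TPM in the female pools and 474, 485 and 498 TPM in the male pools, Atp5g1 had 216, 221 and 189 TPM in the female pools and 197, 198 and 206 TPM in the male pools, and Atp5g2 had 49.4, 46.4 and 38.5 TPM in the female pools and 57.4, 48.6 and 44.8 TPM in the male pools. The order Atp5g3, Atp5g1, Atp5g2 held in every pool. Atp5g3 made up 64.8 to 67.5% of their TPM, Atp5g1 27.03 to 29.1% and Atp5g2 5.51 to 7.89%. Between the sexes these shares gave an exact permutation p of 1, 0.200 and 0.300, in a test that cannot give less than 0.1.

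The order of Atp5g1 and Atp5g2 depended on a copy. The transcript named Gm10175 in the files, a single exon annotated as a processed transcript (645 bases) and placed by GENCODE M39 at chr7:23646064-23646716 on the minus strand, shared 88.3% of the stretches of 31 bases of Atp5g2. Aligned without gaps in M39 sequence, the main transcripts differed at 1 of 650 bases. Gm10175 had 319, 319 and 316 TPM in the female pools and 309, 331 and 304 TPM in the male pools, or 86.9% of the pair. With the copy added, Atp5g2 had 368, 366 and 355 TPM in the female pools and 366, 380.1 and 349 TPM in the male pools, the CV was 2.98% in place of 13.1%, and Atp5g2 held 34.1% of the 3 genes in females and 34.7% in males, above Atp5g1 at 19.6 and 19.1%. Of the other nuclear members, 12 had copies with at least 25% of their 31-base stretches, and these held under 1% of the TPM.

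Female and male nerves were compared gene by gene with edgeR's quasi-likelihood test on all 16310 genes. None of the 95 members passed an adjusted p of 0.1, and none had an unadjusted p below 0.05. Over all genes, 10 passed (0.0613%), and 997 had an unadjusted p below 0.05 (6.11%). DESeq2 called 0 of the 95 members and 159 of all genes (0.975%). The median log2 fold change of females over males was 0.012 over the members and 0.0016 over all genes. Of the 95 members, 77 (81.1%) lay within 0.1 of 0 on the log2 scale, as did 57.6% of all genes. These shares are not of genes alike in level or error, since the median SE was 0.081 for members and 0.101 for all genes. By genome of origin, the median log2 fold change was 0.016 for the nuclear members and -0.083 for the mitochondrially encoded ones. Of the latter, 11 of 13 were lower in females, none past the test. In mean TPM, females were lower for 7 of the 13 and higher for 6 (mt-Atp6, mt-Co3, mt-Cytb, mt-Nd1, mt-Nd2 and mt-Nd4), so the direction depended on the unit.

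The members with the smallest p higher in females were Atp5b (log2 fold change 0.13 ± 0.071, SE, edgeR adjusted p = 0.838) and Cox6b2 (0.24 ± 0.13, adjusted p = 0.838). Higher in males were Ndufb1 (-0.15 ± 0.080, adjusted p = 0.838), mt-Nd5 (-0.16 ± 0.099, adjusted p = 0.863) and Uqcrb (-0.11 ± 0.080, adjusted p = 0.875). In TPM, Atp5b, the catalytic beta subunit, had 595, 622 and 545 TPM in the female pools and 559.8, 557 and 530.1 TPM in the male pools, and female pool 3 fell within the male range. For the accessory subunit Ndufb1 the values were 128, 145 and 143 TPM in the female pools and 153, 156 and 169 TPM in the male pools, and all male pools were above the female ones.

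Summed over all transcripts of a gene, 5 of the 95 members (5.26%) had sexes that did not overlap in TPM, Cox6b2 and Ndufa9 higher in females and Ndufb1, Ndufb8 and Ndufs4 higher in males. Over all 16310 genes the share was 11.0%, with 4.43% higher in every female pool and 6.57% higher in every male pool. For the protein-coding transcripts alone, the sexes were apart for Cox6b2 and Ndufb1 and overlapped for the other 3.

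Cox6a2 had the widest error, with a log2 fold change of 1.48 ± 1.68 (SE, edgeR adjusted p = 0.917), and it became -2.28 ± 0.75 without female pool 2 (adjusted p = 0.999). Cox7a1 went from 0.13 ± 0.24 to -0.20 ± 0.16, with edgeR adjusted p of 0.947 and 0.999. The 3 members on the X chromosome, Ndufa1, Ndufb11 and Cox7b, had log2 fold changes of -0.047 ± 0.097, 0.059 ± 0.068 and -0.056 ± 0.064, none past the test. With copies added, Atp5g2 went from -0.14 ± 0.12 to 0.0084 ± 0.058 and mt-Co3 from 0.012 ± 0.25 to -0.010 ± 0.10, so that both errors narrowed.

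**Figure D4:**
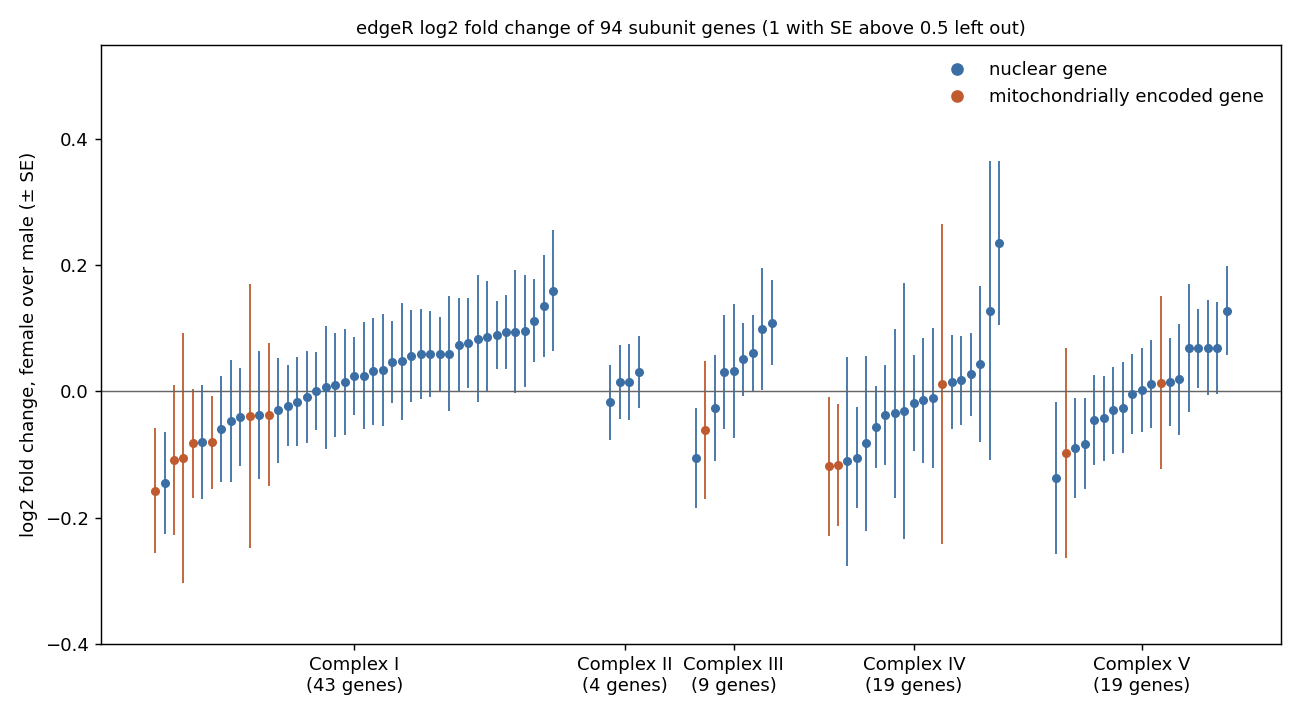
edgeR log2 fold change of females over males for 94 members, ordered within each complex; bars are 1 SE, blue is nuclear and orange is mitochondrially encoded. The changes run from -0.16 (mt-Nd5) to 0.24 (Cox6b2), and Cox6a2, with an SE of 1.68, is left out.

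Sums over a complex were compared between the sexes with an exact permutation test that cannot give a p below 0.1. Nuclear subunits of complex I summed to 4467 ± 141 in females and 4485 ± 206 in males (mean ± SD, n = 3 pools each) TPM, those of complex II to 446 ± 9.41 in females and 450.2 ± 6.59 in males (mean ± SD, n = 3 pools each) TPM, and those of complex III to 1814 ± 91.1 in females and 1790.5 ± 91.8 in males (mean ± SD, n = 3 pools each) TPM. For complex IV the nuclear sum was 4589 ± 207 in females and 4660.1 ± 349.5 in males (mean ± SD, n = 3 pools each) TPM and for complex V 5654 ± 240.0 in females and 5668 ± 164 in males (mean ± SD, n = 3 pools each) TPM. Two-sided exact permutation tests over 11 sums gave p of 0.700 to 1, and 1 for each after adjustment. The mitochondrial share gave p = 0.900 in the exact permutation test. In whole tissue, fewer cells of a type and less RNA per cell cannot be told apart, here and for the levels above.

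Most nuclear members had their highest level in 1 of 2 libraries, of either sex. Of the 82 nuclear members, 34 were highest in female pool 2 and 35 in male pool 3, and 31 were lowest in male pool 1 and 22 in female pool 1. The members above and below the median effective length of 497 bases did not share this equally: female pool 2 was highest for 23 of the 41 longer ones and 11 of the 41 shorter ones, and male pool 3 for 12 and 23. The median log2 ratio of a member to its own mean over pools was 0.090 for shorter and 0.036 for longer members in male pool 3, and 0.054 and 0.066 in female pool 2. Effective lengths in male pool 3 were longer than in female pool 1 by a median of 10.1 bases, against -1 to 3.49 bases in the other pools. Male pool 3 was also lowest for 6 of the 13 mitochondrially encoded members. The part of fragment length and of muscle RNA in these shifts was not tested. Highest and lowest pools were not counted over all genes tested, so these counts are not shown to be particular to the members.

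Cox5b, a zinc-binding subunit of complex IV, was 1 of the genes highest in male pool 3, with 217, 249 and 218 TPM in the female pools and 199.8, 232 and 293 TPM in the male pools (CV 13.99%). Among the nuclear members that passed, only Cox6a2 (CV 160.1%), Cox7a1 (27.3%) and Ndufa4l2 (17.5%) varied more. Across the 82 nuclear members, the level in TPM and the effective length had a Spearman rho of -0.48, and the level in CPM had 0.38. These are descriptions across genes of the same 6 libraries, and length enters the unit.

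Genes that serve the complexes without being members were read from lists. Of 50 assembly factors and carriers, 49 were tested and 0 were called or had an unadjusted p below 0.05 with edgeR. Of these 49, 37 were higher in females, beside 8248 of all 16310 genes. Genes of a list were measured in the same 6 libraries, so such a count is not a test. Cox17, the copper chaperone of complex IV, was the highest at 198 TPM, and Uqcc1, an assembly factor of complex III, had the smallest p (log2 fold change 0.14 ± 0.070, SE, adjusted p = 0.831). Of 19 regulators of mitochondrial gene expression, 0 were called and 2 had an unadjusted p below 0.05. Slirp, an RNA-binding partner that stabilizes mitochondrial messengers, was highest at 78.96 TPM, and Polrmt, the mitochondrial RNA polymerase, had a log2 fold change of 0.20 ± 0.073 (edgeR adjusted p = 0.757).

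Among 14 citric acid cycle genes, 0 were called and 1 had an unadjusted p below 0.05. Mdh2, malate dehydrogenase of mitochondria, was highest at 196 TPM. Idh3a, the catalytic subunit of the NAD-dependent isocitrate dehydrogenase, had 58.2, 60.4 and 48.5 TPM in the female pools and 49.7, 51.03 and 47.7 TPM in the male pools, with a log2 fold change of 0.17 ± 0.072 (edgeR adjusted p = 0.806). Female pool 3 lay within the male range. The median log2 fold changes of the 3 lists were 0.056, 0.049 and 0.052, beside 0.0016 for all genes.

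The promoters of the nuclear members were searched for 5 short motifs. RefSeq windows of 250 bases before to 50 bases after the start (GRCm38.p6, a build other than that of the files) were found for 67 of the 82 nuclear members that passed. The core of the NRF1 site, which reads GCGCA, any base, then GCGC, was in 17 of the 67 (25.4%) and in 5.19% of 27025 genes with a window, on either strand. The ETS core CCGGAAG was in 17 members (25.4%) and 9.93% of genes, and the YY1 core AANATGGCG in 10 members (14.9%) and 2.76% of genes. NRF1 and the ETS factor GABP are known regulators of nuclear respiratory genes. Conversely, the E-box CAGCTG, bound by muscle factors such as MyoD, was in 5 members (7.46%) and 18.3% of genes, and TATAAA in 6 members (8.96%) and 15.7% of genes. The ETS and YY1 cores can share the letters AAG where they adjoin. The 27025 genes were not limited to those expressed in these nerves, so the members are not set beside genes of like level. A match is a description of the letters, and no test was run on these shares.

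The widely expressed Cox6a1 had 2 NRF1 cores and 1 ETS core, Cox8a had 2 ETS cores, and the muscle-type Cox8b had none of these but 2 E-boxes and 1 TATAAA. Cox6a2 had no window. Cox7a1, the third muscle-type form, and Cox7a2 were not among the members with any of the 5 motifs, and either may lack a window. The contrast of both forms therefore rests on the Cox8 pair alone. Of the widely expressed Cox4i1, Cox6b1, Cox7a2, Cox7b and Ndufa4, only Cox6b1 was among the members with an NRF1, ETS or YY1 core. Not every member had a window. The windows of Cox6a1, Cox8a and Cox8b are printed 5′ to 3′ on the strand of the gene, with all matched motifs in capitals.
Cox6a1, chr5:115348909-115349208, minus strand: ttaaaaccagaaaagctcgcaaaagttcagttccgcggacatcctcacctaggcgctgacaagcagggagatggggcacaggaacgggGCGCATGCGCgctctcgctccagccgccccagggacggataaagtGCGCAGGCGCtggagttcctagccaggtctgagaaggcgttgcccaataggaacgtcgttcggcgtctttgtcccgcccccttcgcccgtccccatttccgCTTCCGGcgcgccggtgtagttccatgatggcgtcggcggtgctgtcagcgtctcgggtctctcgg
Cox8a, chr19:7217567-7217866, minus strand: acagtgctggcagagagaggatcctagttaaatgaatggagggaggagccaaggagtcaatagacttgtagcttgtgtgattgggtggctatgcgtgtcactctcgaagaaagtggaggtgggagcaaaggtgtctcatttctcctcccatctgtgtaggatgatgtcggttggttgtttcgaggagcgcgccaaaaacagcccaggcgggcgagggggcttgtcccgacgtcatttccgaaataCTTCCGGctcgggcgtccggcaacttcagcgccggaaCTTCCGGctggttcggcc
Cox8b, chr7:140900397-140900696, minus strand: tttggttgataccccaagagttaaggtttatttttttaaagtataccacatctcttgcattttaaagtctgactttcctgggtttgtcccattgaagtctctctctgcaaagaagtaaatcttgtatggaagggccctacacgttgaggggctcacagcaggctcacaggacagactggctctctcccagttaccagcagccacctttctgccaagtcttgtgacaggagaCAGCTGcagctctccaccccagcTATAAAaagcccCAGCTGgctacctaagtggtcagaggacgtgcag
The levels beside them were 452 TPM for Cox6a1, 529.5 TPM for Cox8a and 9.83 TPM for Cox8b, as means of 6 pools, and of the 3 Cox8b alone had its highest pool at more than 2 times the next.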

How the data were processed

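Strand-specific poly-A libraries of 6 pools of sham sciatic nerve were trimmed by the authors with Trimmomatic 0.39 and quantified with Salmon on GENCODE mouse transcripts (version 1.5.2 according to the notes of the submitters). For each transcript the authors deposited an estimated count of read pairs, not normalized, and a TPM, in which that count is divided by effective length and scaled to 1000000 in each library. Length and effective length stand beside these in the deposited files.

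Here TPM and estimated counts of protein_coding transcripts were summed per member symbol for levels. For the test, estimated counts of all transcripts were summed per gene identifier and rounded. Genes reaching 0.5 CPM in 3 or more pools (16310 of 54309) were fitted with edgeR 4.0.16 (TMM, robust quasi-likelihood fit, no covariate, Benjamini-Hochberg adjustment at 0.1, R 4.3.3). The script was tested on simulated data. Sums and shares per pool were compared with two-sided exact permutation tests. Atp5o has 2 gene identifiers and was tested under the one with more reads. Copies are genes that share at least 25% of a member's stretches of 31 bases in GENCODE M39 transcripts, matched by transcript identifier. DESeq2 1.42.0, limma 3.58.1, other scalings, filters and transcript sets, a replicate block and the omission of each pool were tried. Nothing in the labels says that a replicate number marks a shared day or batch.

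Members and gene lists were chosen with earlier results of these data known. Named were all isoform sets, mitochondrially encoded and complex II members, the 2 highest and 2 lowest nuclear members of each complex among those that passed the filter, any member called, the 3 smallest p in each direction, the 3 largest CVs, members that did not pass the filter and, from the other lists, the highest level and the smallest p. A gene that this rule names is not reported here. The remaining genes were named after their values were seen.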

Additional observations from a re-analysis of the deposited data

Results flagged for a closer look

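Signal lay outside the levels of the members as summed over protein-coding transcripts in 4 places, all with more reads than a count of 0 allows. The 7 chromosome 1 copies of mitochondrially encoded genes held a mean of 13272 TPM per pool. Gm10175, the copy of Atp5g2, held a mean of 316 TPM, and Ndufb4c, the copy of Ndufb4, held 214 TPM. Transcripts of nuclear members that are not annotated as protein-coding, such as those with a retained intron, held 3.88% of the TPM of these genes. The edgeR fit counted these transcripts, and copies entered the values of members only where they are given as added.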

How the results depend on the processing

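The count of 0 members called held under all alternatives run, at an adjusted p of 0.05, and in fits without each pool (0 to 0), as did the 0 called in the other mitochondrial lists. Members with an unadjusted p below 0.05 numbered 10 with limma and sample weights, 3 with transcript length offsets, 6, 2 and 1 without male pool 3, female pool 3 and female pool 2, and 0 otherwise. The share of all genes below that p was counted for the main edgeR fit alone, at 6.11%. The counts of members in the other fits therefore have no background beside them. Over all genes, edgeR called 10, DESeq2 159, limma 18, edgeR without a filter 49, at 1 CPM in all pools 4, with the replicate block 5, and without each pool 3 to 8. The median log2 fold change of members was 0.075 with limma, -0.014 with transcript length offsets and -0.029 to 0.070 without each pool, so its sign was not stable. With the replicate block the count was 0 and the median 0.013. Same-numbered pools correlated at -0.17, -0.12 and -0.092, and the block changed no call of a member.

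In CPM in place of TPM, the log2 ratio of females to males moved from -0.010 to -0.089 for mitochondrially encoded complex I. For complex II it moved from -0.012 to 0.020 and for nuclear complex V from -0.0036 to 0.055, so that both changed sign. In TPM without each pool these ratios ranged, in the same order, from -0.049 to 0.027, -0.028 to 0.0022 and -0.038 to 0.022. The log2 ratio of the Cox6b2 share moved from 0.21 to 0.30 in CPM. Female pool 2 decided the direction of the muscle-type shares (Cox7a1 0.17, and -0.14 without it). The log2 ratio was 1.29 for Cox6a2 and 1.03 for Cox8b, and -2.39 and -1.15 without that pool (ranges -2.39 to 2.41 and -1.15 to 2.64 over the 6 omissions). Adding the copies, an alternative chosen after seeing the data, moved the Atp5g2 share from -0.19 to -0.025, with -0.28 to -0.076 over the omissions. The causes were not tested, apart from the omitted pool and the added copies themselves. Arms of 2 pools are assumed to vary like the rest, and depth limits Cox8b (7 to 193 read pairs per pool), Cox6a2 (13 to 580) and Cox4i2 (36 to 61).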
